A study of Mus musculus with 6 samples.

Results

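Small leucine-rich proteoglycans and versican were followed in cultured mouse aortic smooth muscle cells that lacked FHL2 or were wild-type. The genes are decorin (Dcn), biglycan (Bgn), asporin (Aspn), lumican (Lum), fibromodulin (Fmod), Prelp, osteomodulin (Omd), osteoglycin (Ogn) and versican (Vcan), taken as every array probe whose platform gene symbol is one of these 9. They had 21 of the 45281 probes on the array. Of these, 14 probes of 7 genes passed the detection filter, which asked for a detection p under 0.05 on at least 3 of the 6 arrays and kept 15527 probes in all. The study asked what the LIM-only adaptor protein FHL2 does in vascular smooth muscle. RNA came from 3 FHL2-knockout and 3 wild-type culture batches on the C57Bl/6 strain, each hybridised to 1 one-colour Illumina beadchip. A batch combined the aortic cells of 3 mice, so that each genotype stood for 9 mice, and all batches spent 48 h in medium without serum before RNA was taken. The age and sex of the mice and the deleted part of Fhl2 are not stated by the sources used here.

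Small leucine-rich proteoglycans are secreted proteins with a core of leucine-rich repeats. They bind fibrillar collagen and set fibril width and spacing, and several also bind TGF-beta or innate immune receptors. Decorin and biglycan carry chondroitin or dermatan sulfate chains, and asporin, their close relative, lacks these chains. Lumican, fibromodulin and osteomodulin can carry keratan sulfate, Prelp has an arginine- and proline-rich region that binds heparin, and osteoglycin, also called mimecan, belongs to a separate class. Versican is a large chondroitin sulfate proteoglycan that binds hyaluronan and is known from the intima of diseased arteries.

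The labels were checked first. Fhl2 averaged 6.80 ± 0.21 on the normalized log2 intensity scale in knockout cells and 11.37 ± 0.14 in wild-type cells by its brighter probe (SD, n = 3 each). Its other probe was detected on 0 of 3 knockout and 3 of 3 wild-type arrays. Between 14844 and 16115 probes were detected per array, and median raw intensity lay between 116 and 172. Of 12 smooth muscle markers, 9 had a kept probe. Acta2 and Tagln were detected on all 6 arrays, Myh11 on 2 of 3 knockout and 1 of 3 wild-type arrays, and calponin (Cnn1) on none. Over the kept probes Pearson's r was 0.985 to 0.988 for pairs of arrays within a genotype and 0.934 to 0.939 for pairs across genotypes. The genotypes differed widely: 29.6% of the 15527 probes passed limma's test at a Benjamini-Hochberg adjusted p under 0.05, 14.4% higher and 15.2% lower in knockout cells.

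Decorin was higher in knockout cells, and 5 other members of the family were lower. Represented by its brightest kept probe, 1 of the 7 measured genes was higher, 5 were lower and 1, biglycan, did not pass, against 14.8% higher and 16.5% lower among all 9051 measured genes, or 31.3% in either direction. The median log2 fold change of the 7 genes was -0.75, against -0.01 over all measured genes. At the level of probes, 4 of 14 were higher, all of them Dcn probes, and 8 of 14 were lower, against 14.4% and 15.2% of all kept probes. These counts include 1 Dcn and 1 Lum probe that were detected in 1 genotype alone and so had to differ. The knockout and wild-type arrays did not overlap for any of the 7 genes by its brightest probe, which held for 47.8% of all measured genes. None of these brightest probes passed the filter through 1 genotype alone.

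**Figure D1:**
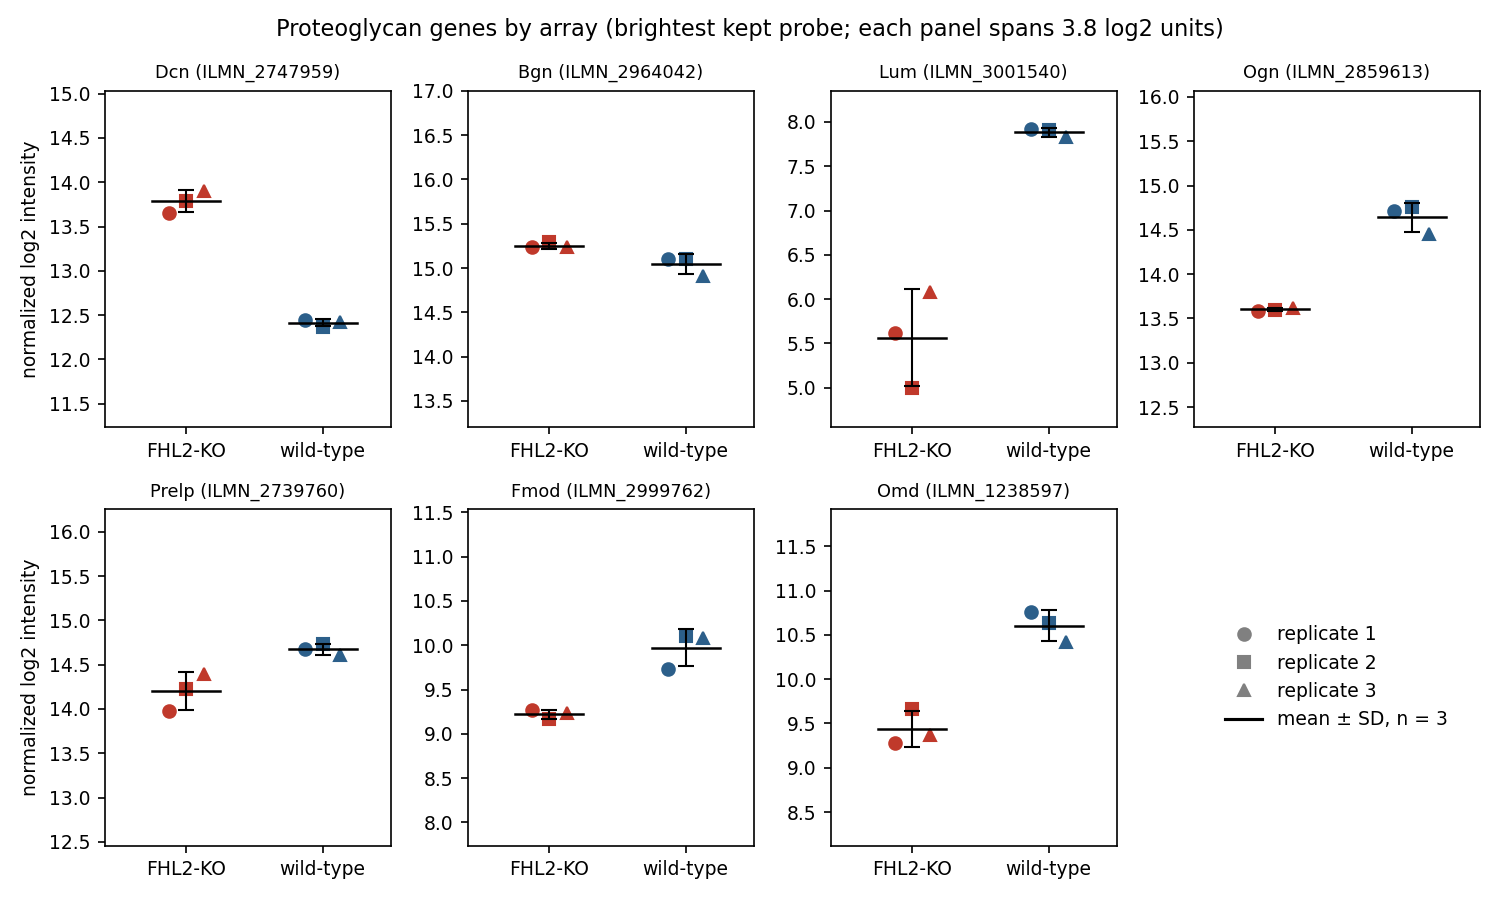
Normalized log2 intensity (y axis) of the brightest kept probe of each of the 7 measured genes in the 3 FHL2-knockout arrays (red, left) and the 3 wild-type arrays (blue, right); symbols mark the replicate, and lines and bars the mean and SD. Dcn lies higher in all 3 knockout arrays, Lum, Ogn, Prelp, Fmod and Omd lie lower in all 3, and Bgn differs by 0.21.

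Decorin, which binds collagen and sequesters TGF-beta, was read by 4 probes. Its brightest probe, ILMN_2747959, gave normalized log2 intensities of 13.65, 13.79 and 13.90 in knockout replicates 1 to 3, against 12.44, 12.37 and 12.43 in wild-type replicates 1 to 3. Every knockout array lay more than 1 log2 unit above every wild-type array. The difference was 1.37 ± 0.12 (moderated SE), or 2.59-fold, with a limma adjusted p of 0.000101. The probe ILMN_2596346 gave 11.96, 12.13 and 12.20 in knockout arrays, against 10.10, 10.11 and 10.22 in wild-type arrays, a difference of 1.95 ± 0.12 or 3.87-fold (limma adjusted p = 1.90e-05). The dimmer ILMN_2604695 averaged 7.81 ± 0.18 in knockout cells and 6.50 ± 0.10 in wild-type cells (SD, n = 3 each) and was 2.49-fold higher. ILMN_1254458, which the platform assigns to a cDNA clone and not to the reference transcript of the other 3 probes, was detected on 3 of 3 knockout and 0 of 3 wild-type arrays. It was at least 1.26-fold higher, a bound in which each wild-type array enters at its lowest detected value, or at its own reading where that is higher. Since it passed the filter through the knockout arrays alone, it had to come out higher. The other 3 probes, detected on all 6 arrays, passed in the same direction with sizes that differed between them. In bulk RNA fewer cells that make a transcript and less transcript per cell cannot be told apart, here and in all that follows.

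Biglycan, the nearest relative of decorin and a ligand of Toll-like receptors, did not pass. Its 1 probe, ILMN_2964042, gave 15.23, 15.29 and 15.23 in knockout arrays, against 15.11, 15.11 and 14.92 in wild-type arrays. The difference was 0.21 ± 0.12 (SE), with a 95% interval of -0.06 to 0.48 and a limma adjusted p of 0.228. The groups did not overlap on this scale, but they did in raw intensity, which was 36813, 45632 and 35688 in knockout arrays and 40331, 27817 and 35935 in wild-type arrays. The probe was among the 3 brightest on each knockout array and ranked 7, 7 and 15 in brightness on the wild-type arrays. Quantile normalization gives probes of equal rank the same value, so that knockout replicates 1 and 3 share one value and wild-type replicates 1 and 2 another. With arrays scaled to a common median in place of quantile normalization the difference was 0.11, and with an intensity trend and robust variances it passed (adjusted p = 0.0322). Bgn lies on the X chromosome. Xist, the X inactivation transcript, named here after its values were seen, was detected on 0 of 3 knockout and 3 of 3 wild-type arrays (at least 14.1-fold lower). Its part in the Bgn value was not tested. The sex of the mice is not stated. For every gene in this report, a difference that goes with Xist cannot be told apart from one of genotype.

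Lumican, a keratan sulfate proteoglycan of collagen-rich tissue, was lower by both of its probes. ILMN_3001540 gave 5.62, 4.99 and 6.08 in knockout arrays, against 7.92, 7.91 and 7.82 in wild-type arrays. The probe was detected on 2 of 3 knockout arrays, not on replicate 2, and on all wild-type arrays, and the knockout arrays varied far more (SD 0.55) than the wild-type arrays (SD 0.05). It fell by 2.32 ± 0.25 on the log2 scale (limma adjusted p = 0.00029), and without knockout replicate 2 the change was -2.03. The other probe, ILMN_2773259, averaged 4.94 ± 0.20 in knockout cells, where no array detected it, and 6.48 ± 0.21 in wild-type cells (SD, n = 3 each), at least 2.33-fold lower. With no background correction, which compresses dim probes, the change at the brightest probe was -1.06 and still passed.

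**Figure D2:**
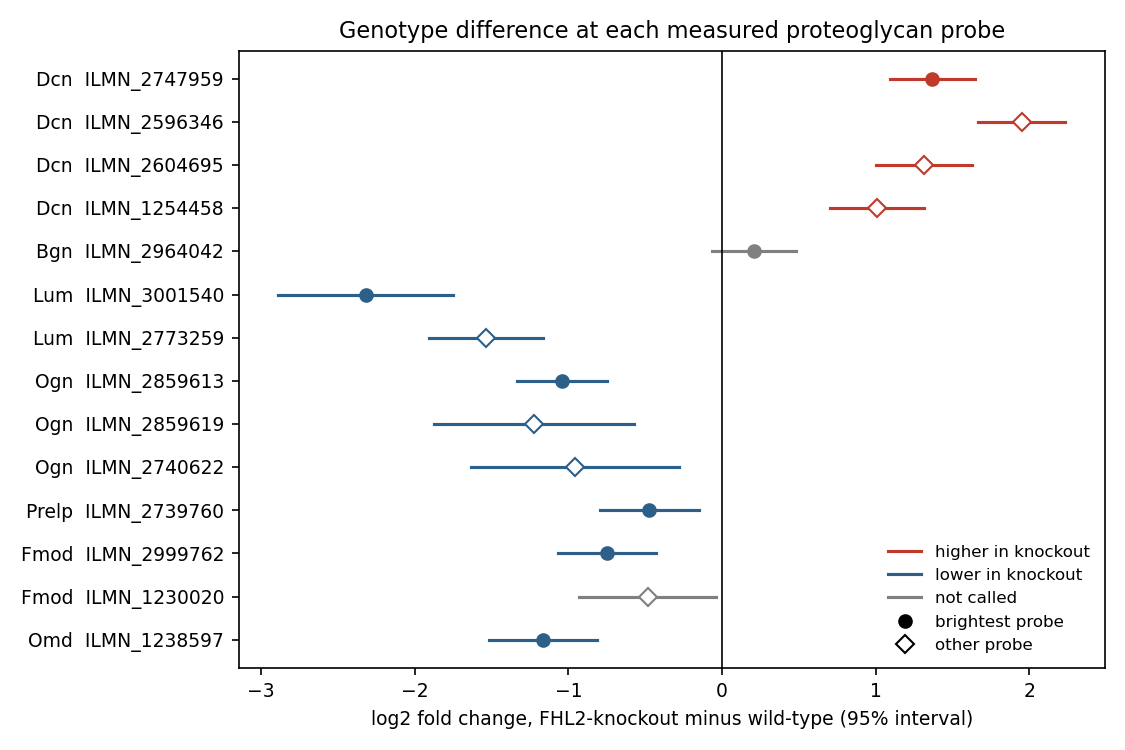
Log2 fold change, FHL2-knockout minus wild-type (x axis), with its 95% interval for each of the 14 probes that passed the detection filter; filled circles mark the brightest probe of a gene and open diamonds its other probes. The 4 Dcn probes lie between 1.01 and 1.95, 8 probes of 5 other genes are lower, and the intervals of Bgn and of the dimmer Fmod probe reach or nearly reach 0.

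Osteoglycin, known from bone and the vessel wall, and osteomodulin, known from bone and teeth, were both lower. Their genes and Aspn follow one another on chromosome 13 in RefSeq's order. ILMN_2859613, the brightest Ogn probe, gave 13.59, 13.60 and 13.62 in knockout arrays, against 14.71, 14.76 and 14.45 in wild-type arrays. The knockout arrays were nearly equal, and the lowest wild-type array was replicate 3. Ogn was 2.06-fold lower, a log2 change of -1.04 ± 0.13 (SE, limma adjusted p = 0.000583). Wild-type replicate 3 was also the lowest wild-type array at both other Ogn probes. ILMN_2859619 gave 9.15, 9.31 and 9.63 in knockout arrays, against 11.15, 10.65 and 9.96 in wild-type arrays, and was 2.33-fold lower (limma adjusted p = 0.0132). ILMN_2740622 gave 7.76, 8.11 and 8.35 in knockout arrays, against 9.35, 9.41 and 8.33 in wild-type arrays. At this probe the groups overlapped, and its change of -0.96 (limma adjusted p = 0.0414) no longer passed without knockout replicate 1 (adjusted p = 0.114) or 2 (0.0815), or without wild-type replicate 1 (0.130) or 2 (0.128). It was also lost with the authors' deposited log2 matrix (0.0595) and with no filter on dim probes (0.0964).

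Omd has 1 probe, ILMN_1238597, which gave 9.28, 9.66 and 9.37 in knockout arrays, against 10.76, 10.63 and 10.42 in wild-type arrays. The groups stood apart, and Omd was 2.25-fold lower (log2 change -1.17 ± 0.15, SE, limma adjusted p = 0.00083). The log2 difference between Ogn and Omd within an array averaged 4.16 ± 0.20 in knockout cells and 4.04 ± 0.09 in wild-type cells (SD, n = 3 each), and its change of 0.13 did not pass an exact two-sided permutation test (p = 0.4), in which 3 against 3 arrays cannot go below 0.1. The upstream sequences of these neighbouring genes, which fell together, are shown as RefSeq's promoter table gives them, from 250 bases to 1 base before the start (GRCm38.p6). Ogn is read from chr13:49607765-49608014, plus strand, and Omd from chr13:49582212-49582461, plus strand. Capitals in Ogn mark matches to the letters of a TATA box (TATAAA) on either strand, 229 to 222 bases before the start. Whether they act as a TATA box was not tested.
Ogn: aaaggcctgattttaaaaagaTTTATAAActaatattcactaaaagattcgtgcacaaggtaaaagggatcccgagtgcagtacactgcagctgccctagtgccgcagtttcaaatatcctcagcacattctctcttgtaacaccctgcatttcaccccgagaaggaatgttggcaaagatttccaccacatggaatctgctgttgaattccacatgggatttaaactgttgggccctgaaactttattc
Omd: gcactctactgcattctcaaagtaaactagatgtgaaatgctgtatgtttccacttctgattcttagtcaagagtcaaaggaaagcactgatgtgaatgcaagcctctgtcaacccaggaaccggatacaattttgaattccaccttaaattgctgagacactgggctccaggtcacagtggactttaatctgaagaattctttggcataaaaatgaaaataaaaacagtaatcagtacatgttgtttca

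Prelp and fibromodulin, neighbouring genes on chromosome 1, were lower by smaller amounts. Prelp is thought to anchor collagen to basement membranes, and fibromodulin to guide collagen cross-linking. Prelp's probe, ILMN_2739760, gave 13.98, 14.23 and 14.40 in knockout arrays, against 14.68, 14.73 and 14.61 in wild-type arrays. The highest knockout array lay below the lowest wild-type array, and the change was -0.47 ± 0.14 (SE), or 1.39-fold lower (limma adjusted p = 0.0368). This call was lost without knockout replicate 1 (adjusted p = 0.112) or 2 (0.0874), without wild-type replicate 1 (0.0735), 2 (0.104) or 3 (0.0662), with the authors' deposited log2 matrix (0.0597), with no filter on dim probes (0.0723) and with median scaling (0.281).

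Fmod's brighter probe, ILMN_2999762, gave 9.27, 9.17 and 9.23 in knockout arrays, against 9.73, 10.11 and 10.08 in wild-type arrays. The knockout arrays lay close together, below all wild-type arrays, and Fmod was 1.68-fold lower (log2 change -0.75 ± 0.14, SE, limma adjusted p = 0.00473). Its dimmer probe, ILMN_1230020, gave 6.93, 7.63 and 7.02 in knockout arrays, against 7.76, 7.71 and 7.56 in wild-type arrays. There knockout replicate 2 lay within the wild-type range, and the change of -0.48, with a 95% interval of -0.93 to -0.04, did not pass (limma adjusted p = 0.0993). Without knockout replicate 2 it was -0.70 and passed (adjusted p = 0.0139). Within arrays, the log2 difference between Prelp and Fmod averaged 4.98 ± 0.24 in knockout cells and 4.70 ± 0.22 in wild-type cells (SD, n = 3 each; exact two-sided permutation p = 0.2). Their upstream sequences are shown as the second pair of neighbours that were both lower. Fmod is read from chr1:134037004-134037253, plus strand, and Prelp from chr1:133921402-133921651, minus strand.
Fmod: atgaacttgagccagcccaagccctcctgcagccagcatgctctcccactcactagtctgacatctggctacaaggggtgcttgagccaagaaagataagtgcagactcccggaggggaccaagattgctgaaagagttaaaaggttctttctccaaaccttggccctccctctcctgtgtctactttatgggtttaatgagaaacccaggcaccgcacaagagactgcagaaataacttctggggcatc
Prelp: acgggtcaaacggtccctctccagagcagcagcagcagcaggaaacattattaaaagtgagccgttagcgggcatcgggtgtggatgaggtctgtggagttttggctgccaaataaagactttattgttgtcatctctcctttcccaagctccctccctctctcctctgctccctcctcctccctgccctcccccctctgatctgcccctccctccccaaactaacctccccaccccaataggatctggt

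RefSeq's table matched 7 of the 9 genes, and Dcn and Lum were not matched. A TATA box (TATAAA), an AP-1 site (TGANTCA), a SMAD box (CAGACA) and a CArG box were searched on both strands of the 250 upstream bases. The TATA box letters were found in Ogn and Aspn. In Ogn 2 overlapping matches span 229 to 222 bases before the start, and 12.4% of 32851 promoters hold a match. The AP-1 letters stand in none of the 7, against 6.75% of all promoters, the CArG letters in none, against 1.47%, and the SMAD letters in none, against 17.1%. The G and C content was 42% for Ogn, 38.4% for Omd, 51.2% for Fmod and 55.6% for Prelp.

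Asporin, which in cartilage binds TGF-beta, was not above background. Its 1 probe, ILMN_1231476, was detected on 0 of 6 arrays and gave 4.43, 4.86 and 4.48 in knockout arrays, against 4.93, 4.52 and 4.95 in wild-type arrays. The groups overlapped, and no fold is given. Versican was read by 6 probes, and none passed the filter. Of their 36 readings, 1 counted as detected. This was ILMN_2669627 on knockout replicate 2, where its normalized log2 intensity was 5.49. On the other arrays this probe gave 4.80 and 5.20 in knockout replicates 1 and 3, against 4.87, 4.61 and 4.45 in wild-type arrays. All Vcan values lay between 4.36 and 5.49, and all but that reading lay below or within the range of the lowest detected value per array, which was 5.18 to 5.32. Of the 6 Vcan probes, 5 are assigned to the reference transcript and ILMN_2555157 to a cDNA clone. The sources used here do not state where the probes lie in the transcript, and no Vcan level is given for either genotype beyond this bound. Cultured arterial smooth muscle cells are known to make versican, and whether these probes can detect its transcript was not tested.

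**Figure D3:**
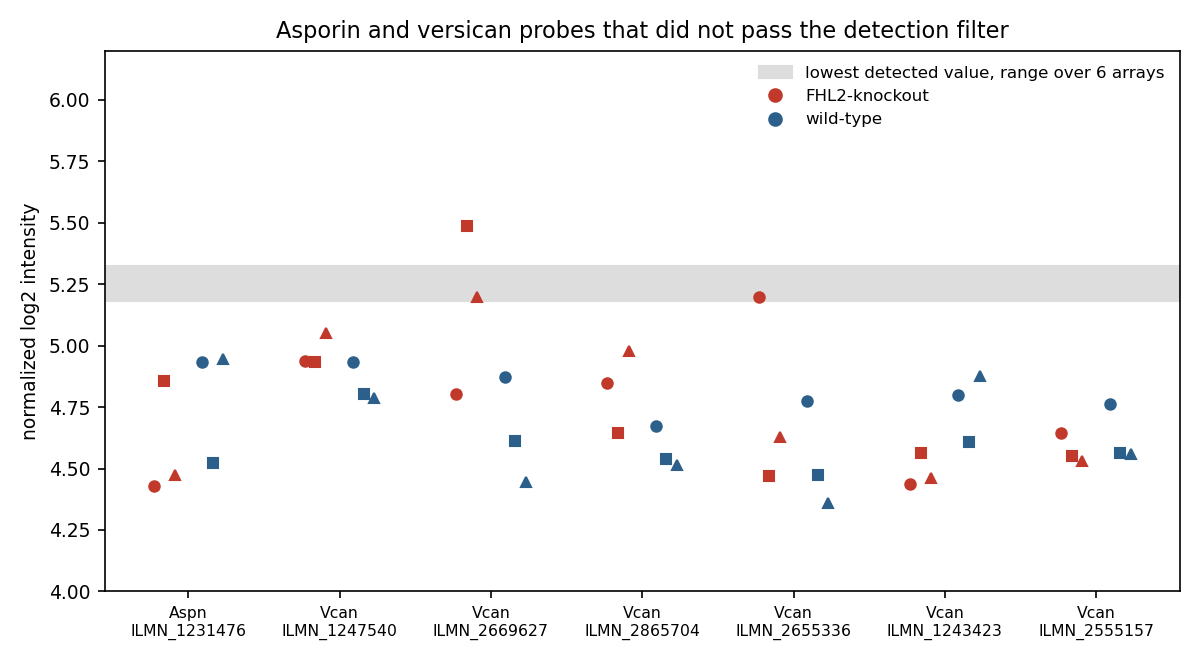
Normalized log2 intensity (y axis) of the Aspn probe and the 6 Vcan probes in the 3 FHL2-knockout arrays (red, left of each position) and the 3 wild-type arrays (blue, right), with symbols for replicates 1 (circle), 2 (square) and 3 (triangle); the grey band is the lowest value of any detected probe, from 5.18 to 5.32 over the 6 arrays. ILMN_2669627 on knockout replicate 2, at 5.49, is the only point above the band.

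Dcn and Lum lie side by side on chromosome 10 and moved in opposite directions. The log2 difference between Dcn and Lum within an array was 8.04, 8.80 and 7.82 in knockout arrays, against 4.53, 4.45 and 4.60 in wild-type arrays. The Lum probe was not detected on knockout replicate 2, so that the value of 8.80 there rests on a reading not above background. Both other knockout arrays lay above all wild-type arrays. The log2 difference between Dcn and Bgn was -1.58, -1.50 and -1.33 in knockout arrays, against -2.67, -2.74 and -2.49 in wild-type arrays, 1.16 larger. For both pairs the exact two-sided permutation p was 0.1, the smallest that 3 against 3 arrays allow, and 0.2 after Benjamini-Hochberg adjustment over the 4 pairs compared. These values show unequal change of 2 probes and not a ratio of transcripts.

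The 3 clusters of these genes were set against their neighbours in RefSeq's order, taking 3 protein-coding genes on either side. Of 18 such genes, 7 had a kept probe, and 1 was higher and 2 lower, against 31.3% of all measured genes in either direction. On the Dcn side of the Dcn and Lum pair, Btg1 gave 0.21 (limma adjusted p = 0.261) and Eea1 0.11 (0.820), and neither passed. Kera and Epyc, further small leucine-rich proteoglycan genes beyond Lum, had no kept probe. Beyond Ogn, the isoleucyl-tRNA synthetase gene Iars rose by 0.84 (adjusted p = 0.00143). Ippk, beyond Aspn, fell by 0.48 (adjusted p = 0.0218), and Cenpp gave 0.75 (0.0769). Beyond Fmod, Chil1 was detected on 1 of 3 knockout arrays and fell by 1.60 (adjusted p = 0.00476), and beyond Prelp Atp2b4 gave -0.09 (0.814).

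Profiles most like each gene were found by the Euclidean distance between log2 values over the 6 arrays, after each profile was centred on its own mean. Dcn was nearest to Slc7a6, Sh3glb2 and En1, at distances of 0.17, 0.19 and 0.19, En1 being detected on no wild-type array. For Lum, whose knockout arrays were variable, Col9a2, Igf2bp3 and Gdf1 were nearest, at 0.47, 0.53 and 0.53. Ogn was nearest to Tgfbr3 (0.13), which codes for the TGF-beta co-receptor betaglycan, then to Eya1 and Sipa1l1 (both 0.17), Eya1 being detected on no knockout array. Distances to such genes rest in part on readings not above background, as do those to Col9a2 and Epm2a, each detected on 1 of 3 knockout arrays, and to Igf2bp3 and Gdf1, each detected on 2 of 3. Omd was nearest to Psmb9 (0.19), Pdzrn3 and Trps1 (both 0.26). Fmod was nearest to Acad8 (0.077), Tmem237 (0.096) and Tprkb (0.11), and Prelp to 2610001J05Rik (0.11), Pde1b (0.12) and Epm2a (0.13). The genes nearest to Bgn were Pdcd4 (0.056), Tmem167b (0.058) and Znhit2 (0.069). No measured member was among the 3 nearest of another.

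Genes that build, cut or bind these proteoglycans changed in both directions. Over 7 lists, 80 of 140 genes were measured, and 20 were higher and 16 lower. Among all measured genes 14.8% were higher and 16.5% lower, and each count below stands against these shares. Of 10 other small leucine-rich proteoglycan genes only podocan (Podn) was measured. It averaged 6.34 ± 0.18 in knockout cells and 4.87 ± 0.10 in wild-type cells (SD, n = 3 each), where no array detected it, and was at least 2.13-fold higher. Of 20 chondroitin and dermatan sulfate synthesis genes, 2 were higher and 4 lower (median -0.05). Csgalnact1, which starts chondroitin chains, fell by 2.24 ± 0.12 (SE, limma adjusted p = 6.38e-06), and Pxylp1, the phosphatase that acts on the linker sugar, fell by 1.54 ± 0.12. Of 7 keratan sulfate synthesis genes, 3 were higher and none lower (median 0.34). With median scaling in place of quantile normalization 2 were higher, as under some other alternatives. B4galt4 rose by 0.71 but lost its call under 6 of 16 alternatives. Of the keratan sulfate core proteins Lum, Fmod and Omd were lower. The sulfotransferase gene Chst1, detected on 2 of 3 wild-type arrays, rose by 0.99. B4galt1 rose by 0.87, and another of its probes gave -0.51 without passing.

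Of 8 genes of hyaluronan, the polymer that versican binds, 1 was higher and 2 lower (median -0.18). The synthase Has2 was detected on 0 of 3 knockout arrays and was at least 2.82-fold lower, and Cemip, which promotes hyaluronan breakdown, rose by 0.75. Of 9 measured proteases 3 were higher and 1 lower (median 0.01). Mmp14 rose by 0.87, and Bmp1, which trims the propeptides of decorin, biglycan and osteoglycin, by 0.57. Bmp1 did not pass with median scaling (adjusted p = 0.134). Its other kept probes gave 0.87, 0.72 and -0.05, and the last did not pass. Of 13 receptors 1 was higher and 6 lower (median -0.30), among them Itga2, at least 2.25-fold lower, and Tlr2, a receptor for biglycan, which fell by 1.66. Of 22 matrix and growth factor partners, 9 were higher and 3 lower (median 0.14). Tnc rose by 2.82, although another of its probes gave 0.35 without passing. Among fibrillar collagen genes of this list Col2a1 fell by 1.74, while Col1a1, Col1a2 and Col3a1 rose by 1.29, 1.45 and 1.98. Col5a1 and Col5a2 did not pass. Against the 31.3% of all measured genes that passed, 45% of the genes of these lists did. That share includes Podn, Has2, Itga2 and Slc35d1, which were detected in 1 genotype alone and so had to differ in level. Slc35d1, at least 1.16-fold lower, lost its call under 5 of 14 alternatives.

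**Figure D4:**
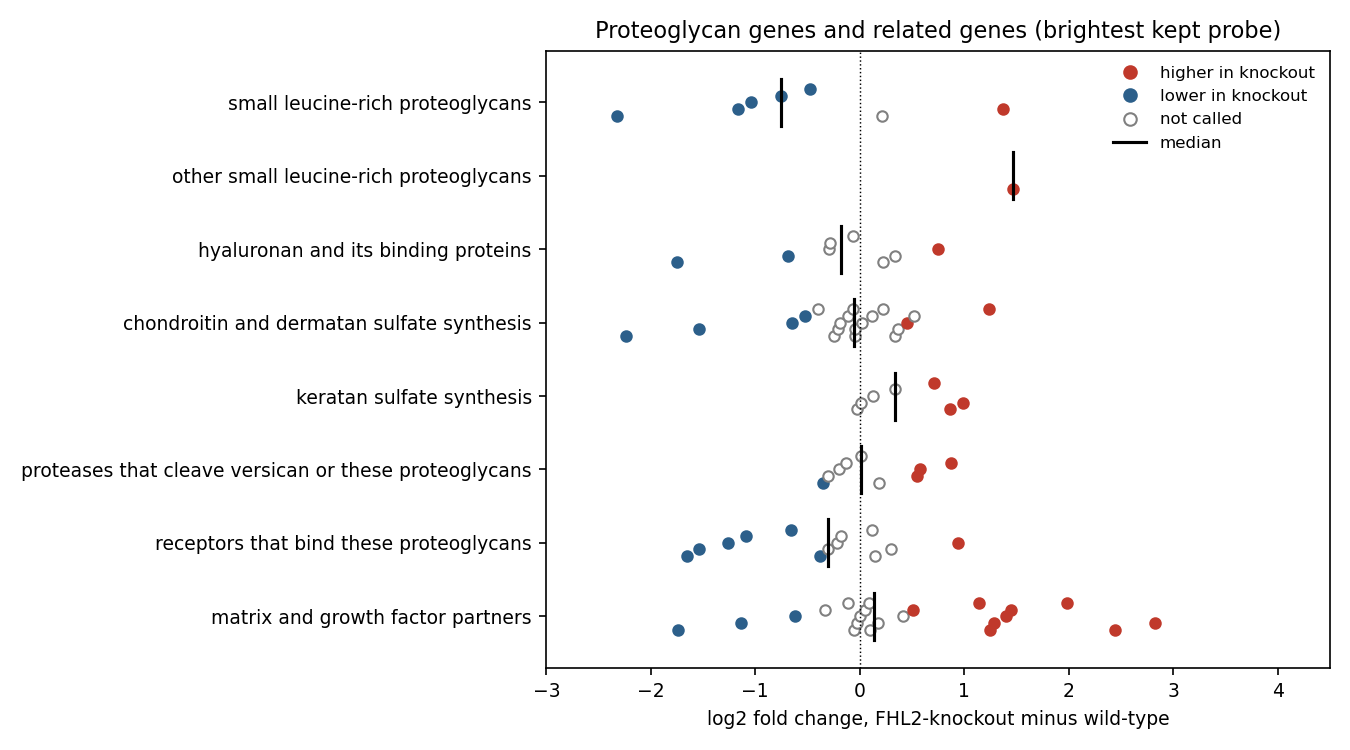
Log2 fold change, FHL2-knockout minus wild-type (x axis), of each measured gene by its brightest kept probe, for the 7 measured proteoglycan genes and for 7 lists of related genes; colours mark adjusted p under 0.05 and vertical bars the median of a list; genes detected in 1 genotype alone stand at their fitted value, which is not a bound. The proteoglycan genes have a median of -0.75, and the related lists have medians between -0.30 and 0.34 apart from the list of which only Podn was measured.

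Genes that mark other kinds of cell also differed between the genotypes, and their part in the proteoglycan values was not tested. The counts below stand against 14.8% higher and 16.5% lower among all measured genes, or 31.3% in either direction. Of 10 measured adventitial fibroblast markers, 2 were higher and 5 lower in knockout cells, and their mean log2 level was 7.86 to 7.98 in knockout arrays and 8.52 to 8.61 in wild-type arrays. Of 12 mesothelial and epithelial markers 5 were measured. All 5 were higher, at 8.25 to 8.28 in knockout arrays and 4.93 to 5.11 in wild-type arrays. Krt8, Krt18 and Krt19 had no kept probe, and Lrrn4 and Epcam were detected on no array. Of 12 endothelial markers 7 were measured. Of these 6 were lower, and the 7 averaged 4.90 to 4.99 in knockout arrays and 7.02 to 7.31 in wild-type arrays. Kdr, detected on 3 of 3 knockout and 1 of 3 wild-type arrays, did not pass. Tek, Tie1, Vwf and Erg had no kept probe, and Cldn5 was detected on no array. Of 8 bone and cartilage markers none was higher and 5 were lower, at 7.47 to 7.60 in knockout arrays and 8.89 to 9.07 in wild-type arrays. Of 9 smooth muscle markers 3 were higher and 1 lower, at 8.23 to 8.40 in knockout arrays and 7.57 to 7.77 in wild-type arrays. Their median log2 fold change was 0.25, and the largest change was that of Actg2, 3.89. Myh11, Tagln, Smtn, Des and Ramp1 did not pass. Of 3 adipocyte markers 2 were lower, at 6.61 to 6.93 in knockout arrays and 7.70 to 7.83 in wild-type arrays. Among 3 macrophage or leukocyte markers 1 rose and 1 fell, at 5.92 to 6.23 in knockout arrays and 6.47 to 6.59 in wild-type arrays, with Ptprc, Adgre1 and Itgam detected on no array. Of 2 neural markers 1 was higher, at 6.55 to 7.21 in knockout arrays and 5.93 to 6.10 in wild-type arrays, and none of the erythroid markers had a kept probe. Of these markers 3 mesothelial and epithelial, 6 endothelial, 1 adventitial fibroblast (Clec3b), 1 bone and cartilage (Cytl1) and 1 neural (Mbp, the only neural marker that was higher) passed the filter through 1 genotype alone, so that these had to differ. Among genes often used for scale, Rplp0 gave 0.18 and Actb 0.43 without passing, while Gapdh rose by 0.83.

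**Figure D5:**
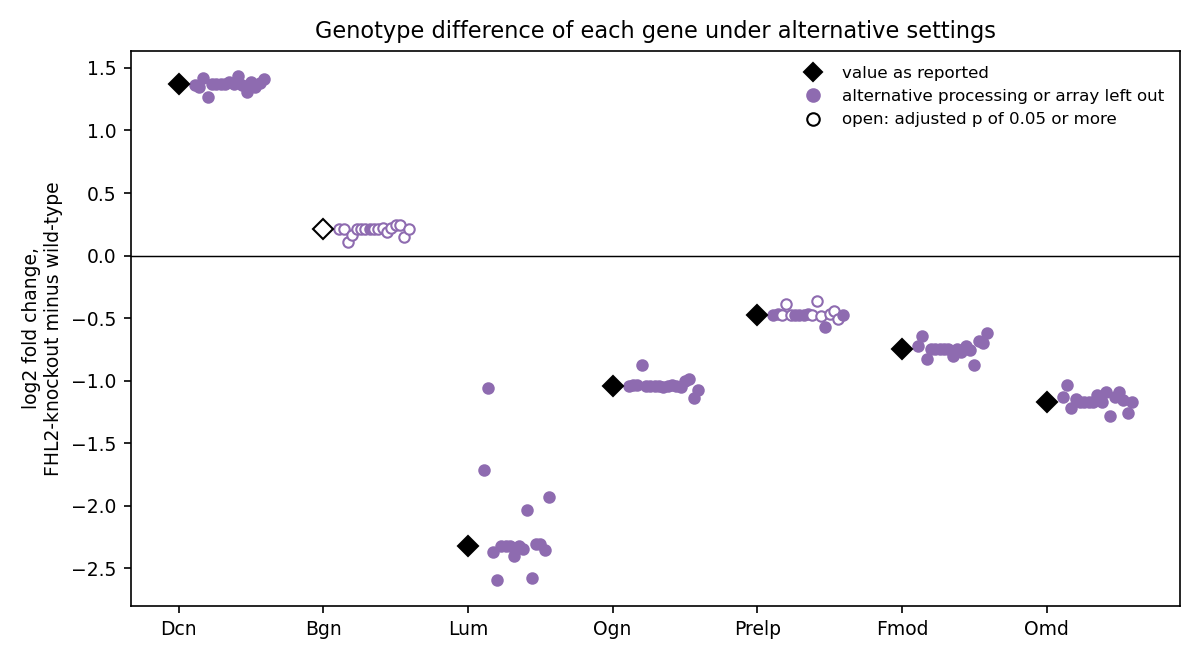
Log2 fold change, FHL2-knockout minus wild-type (y axis), of each measured proteoglycan gene as reported (black diamond) and under each alternative setting or with 1 array left out (purple circles); open symbols mark an adjusted p of 0.05 or more. No gene changes direction, Bgn passes under 1 alternative, Prelp loses its call under 9 of 17 alternatives, and Lum ranges from -2.60 to -1.06.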

How the data were processed

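RNA of 3 FHL2-knockout and 3 wild-type batches was read on 1 array each. The authors deposited raw bead intensity and a detection p-value per probe and array, per the file headers, and a log2 matrix that is normalized between arrays, as its near-equal quantiles show. GenomeStudio 2011.1, R 2.14.0 and limma 3.10.2 are listed, with no role, in the submitters' processing notes. The sources used here do not give the background treatment. The matrix columns correlated at 0.999 with their arrays, and the offset behind their scale is unknown.

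Here neqc of limma 3.58.1 (R 4.3.3) normalized the intensities (background from the detection p, offset of 16, quantile normalization, log2). The offset shrinks differences of dim probes. Probes detected (p under 0.05) on at least 3 of 6 arrays were tested with lmFit and eBayes, knockout minus wild-type, adjusted by Benjamini-Hochberg over 15527 probes. All adjusted p-values for genes are from limma. A gene is represented by its brightest kept probe. Symbols come from the platform annotation, updated by gene identifier through RefSeq (34807 of 34885 probes with 1 symbol matched). The number of arrays limits the precision. The p-values set the genotype difference against the spread between culture batches of a genotype, moderated by eBayes over all tested probes.

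The members, lists and tests were chosen with earlier results of these data known. Named genes are all members with all probes, Fhl2, cluster neighbours and the first 2 by p of each related list. Actb, Gapdh, Rplp0 and the 3 nearest profiles are also named. The rule allowed 4 per related list and 3 per marker list. Xist was added, as were B4galt4, Slc35d1, Kdr, further fibrillar collagen genes and smooth muscle markers. In values simulated for the 15527 probes from their own means and variances, 50 probes each were changed by 0.5, 1, 2 and 4 (log2). Of these 6%, 62%, 96% and 100% were called, and 6 of 138 calls were false. In the data 29.6% of probes passed, a far larger share than was changed in the simulation. The simulated rates therefore do not carry over to the data. Same-numbered replicates deviated together only weakly (r of 0.118, 0.0727 and 0.0641), so the number was not used as a pairing. Slides and scan dates are not stated.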

Additional observations from a re-analysis of the deposited data

How the results depend on the processing

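Alternatives covered the background correction, scaling, the authors' deposited matrix, the detection filter, a block for the replicate number, weights per array, how variances were modelled, each array left out in turn on the same probes, and the mean of a gene's probes. Dcn, Lum, Ogn, Fmod and Omd kept direction and call under every alternative that gave them a value (Lum's brightest probe was not kept when detection on all 6 arrays was asked). Prelp lost its call under 9 of 17, with changes from -0.57 to -0.36 over all 17, and the cause was not tested. Of the measured proteoglycan genes 4 or 5 were lower in all alternatives, and 1 was higher, except 2 with an intensity trend and robust variances, which added Bgn. With median scaling in place of quantile normalization 1002 probes were higher and 1561 lower, against 2235 and 2361, the median log2 fold change of all probes was -0.08, and 10 related genes were lower, against 16, and the cause was not tested. Leaving out 1 array gave 1636 to 2147 higher and 1803 to 2160 lower probes. With the replicate number as a block 2147 probes were higher and 2258 lower, 4 proteoglycan genes were lower, and Prelp (adjusted p = 0.0561) and the Ogn probe ILMN_2740622 (0.0594) did not pass. In deviations from the mean of its genotype, each array correlated best, among arrays of the other genotype, with that of its own number, which is a hint from the data and not from the design. Of 80 other named genes, 4 that did not pass changed sign: with 1 array left out, Atp2b4 ranged from -0.30 to 0.18, Eea1 from -0.22 to 0.35, Csf1r from -0.066 to 0.089 and Ncam1 from -0.36 to 0.12, and with array weights Ncam1 gave 0.058. With 3 arrays per genotype, and with probes near background for Aspn, Vcan and, in knockout cells, Lum, small differences could not be resolved.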
